A study of Mus musculus with 14 samples.

Results

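The 10 genes described here encode the machinery by which mouse cells present peptides on MHC class I molecules. They are the heavy chains H2-K1 and H2-D1, the light chain B2m, the peptide transporter subunits Tap1 and Tap2, the loading factor Tapbp, the immunoproteasome subunits Psmb8, Psmb9 and Psmb10, and the transactivator Nlrc5. They were taken by gene symbol from the 45777 genes of each deposited RNA-seq table. All 10 had reads in all 14 libraries and passed the filter of every test on counts, the lowest count being 10 reads (Nlrc5 in SMG organoids). The libraries form 7 groups of 2. PG (parotid), SLG (sublingual) and SMG (submandibular) organoids were cultured in DAM, a differentiation medium, a second set of SMG organoids was cultured in GEM, the growth medium, and PG, SLG and SMG tissue was sequenced directly. Cells and tissue came from wild-type female C57BL/6 mice aged 6 to 8 weeks, and no group carried a genetic change. All organoids grew in Matrigel with NRG1, RSPO1, Noggin, FGF1, FGF7 and A83-01. GEM also held 10 µM of the ROCK inhibitor Y-27632, which DAM lacked, and DAM held 5 µM of the Notch inhibitor DAPT. The labels give 3 days in the growth or differentiation medium. By the study's account, DAM organoids were first grown in GEM and then kept 3 days in DAM. For stained SMG organoids, the study describes the DAM cultures as kept 3 days longer than the GEM cultures. If the sequenced ones were handled likewise, medium and time in culture cannot be told apart between the DAM and GEM organoids. Organoids are passaged epithelial cultures, and the study describes the organoid samples of a gland in DAM as biologically independent, without giving the number of animals. For the tissue and GEM groups nothing was found on whether the libraries came from separate animals or cultures, so p-values there measure the spread between libraries, which may be technical.

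In the class I pathway, proteins in the cytosol are cut by the proteasome, and the heterodimer of Tap1 and Tap2 carries the peptides into the endoplasmic reticulum. Tapbp, also called tapasin, holds empty class I molecules beside that transporter until a peptide is bound, and the heavy chain then travels to the surface with B2m for inspection by CD8 T cells. Interferons are known to raise most of these genes: Psmb8, Psmb9 and Psmb10 then replace the constitutive catalytic subunits Psmb5, Psmb6 and Psmb7, and Nlrc5 acts with factors bound to conserved promoter boxes of class I genes. Most nucleated cells, epithelium included, carry class I molecules without any infection.

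Of the 10 genes, 7 lie on chromosome 17. In the GRCm38.p6 annotation, H2-K1 spans chr17:33996012-34000619 on the minus strand and H2-D1 spans chr17:35263094-35267497 on the plus strand. Psmb9 (chr17:34182030-34187330, minus strand) and Tap1 (chr17:34187556-34197225, plus strand) start back to back with 225 bases between them, Psmb8 (chr17:34198195-34201454) begins 969 bases after Tap1 ends, and Tap2 (chr17:34204479-34216321) lies 3024 bases beyond Psmb8, these last 3 on the plus strand. Tapbp (chr17:33919478-33929290, plus strand) completes the set on that chromosome. B2m (chr2:122147687-122153082, plus strand) lies within the annotated span of Patl2, while Psmb10 (chr8:105935728-105938392, minus strand) and Nlrc5 (chr8:94434335-94527272, plus strand) lie far apart on chromosome 8. Tapbp and Nlrc5 also overlap annotated noncoding or predicted genes, and the sources used here do not say whether counting respected strand. In comparisons of transcripts over windows of 100 bases, H2-K1 shared none of its 1520 windows with another listed class I gene, while H2-D1 shared 89 of 2003 (4.44%), so a small part of the H2-D1 count could be exchanged with other class I genes.

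The promoters of 5 members are printed because these genes differed most between the glands or stand side by side as the 2 classical heavy chains. Each is a RefSeq window (GRCm38.p6) with 250 bases before the start site and 50 from it on, written 5′ to 3′ on the strand of the gene. Capitals mark matches, on either strand, to the searched letters GAAANNGAA or GAANNGAAA (the core of the interferon response element), TGACGC or TGACGT (the cyclic AMP response element type of box), CCAAT (the Y box) and GGGATTCCC (an NF-kappaB type of box).
H2-K1 (chr17:34000298-34000597, minus strand): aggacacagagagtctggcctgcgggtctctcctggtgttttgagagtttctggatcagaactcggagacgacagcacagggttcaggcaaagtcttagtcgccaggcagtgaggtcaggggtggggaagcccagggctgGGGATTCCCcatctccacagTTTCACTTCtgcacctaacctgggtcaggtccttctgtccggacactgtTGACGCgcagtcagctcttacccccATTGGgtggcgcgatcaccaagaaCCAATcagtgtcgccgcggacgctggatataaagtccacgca
H2-D1 (chr17:35262844-35263143, plus strand): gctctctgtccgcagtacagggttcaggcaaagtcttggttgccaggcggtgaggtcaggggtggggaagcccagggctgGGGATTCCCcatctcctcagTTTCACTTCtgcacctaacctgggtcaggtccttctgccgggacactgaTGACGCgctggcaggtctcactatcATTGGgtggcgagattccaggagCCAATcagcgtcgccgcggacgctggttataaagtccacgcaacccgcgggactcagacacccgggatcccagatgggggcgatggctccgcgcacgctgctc
B2m (chr2:122147437-122147736, plus strand): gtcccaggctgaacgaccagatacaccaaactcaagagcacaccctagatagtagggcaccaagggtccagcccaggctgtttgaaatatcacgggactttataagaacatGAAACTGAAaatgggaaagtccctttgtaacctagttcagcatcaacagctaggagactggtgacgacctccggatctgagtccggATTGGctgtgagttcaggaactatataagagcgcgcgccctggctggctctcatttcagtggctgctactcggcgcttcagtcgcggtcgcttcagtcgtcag
Psmb8 (chr17:34197945-34198244, plus strand): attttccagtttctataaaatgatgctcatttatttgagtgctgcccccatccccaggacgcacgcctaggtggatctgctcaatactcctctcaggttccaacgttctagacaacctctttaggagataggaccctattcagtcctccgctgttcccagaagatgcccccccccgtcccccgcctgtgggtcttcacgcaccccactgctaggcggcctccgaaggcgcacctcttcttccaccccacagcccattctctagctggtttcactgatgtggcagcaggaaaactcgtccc
Psmb9 (chr17:34187281-34187580, minus strand): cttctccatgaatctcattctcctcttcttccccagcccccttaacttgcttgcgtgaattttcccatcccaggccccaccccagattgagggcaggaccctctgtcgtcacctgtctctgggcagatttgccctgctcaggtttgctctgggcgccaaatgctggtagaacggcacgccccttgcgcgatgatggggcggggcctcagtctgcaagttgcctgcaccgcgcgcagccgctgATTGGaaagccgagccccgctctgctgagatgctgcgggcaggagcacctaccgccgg
H2-K1 and H2-D1 held the same boxes in the same order. In both, the interferon response core began 20 bases and TGACGC 69 bases after the first base of GGGATTCCC. The B2m window held GAAANNGAA and a Y box, the Psmb9 window held a Y box alone, and the Psmb8 window held none of the searched letters. The window of Psmb9 shares 275 bases with that of Tap1. GGGATTCCC was found in 0.353% of the 32841 promoter windows of the table, TGACGC in 7.41%, GAANNGAAA in 7.51%, GAAANNGAA in 8.56% and CCAAT in 37.4%. GAANNGAAA was added to the search after the sequences had been seen. Promoter windows were found for 8 of the 10 genes, Tap2 and Nlrc5 being those with none.

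Counted reads per library ranged from 56383651 to 69139767 in organoids and from 57397998 to 71367044 in tissue. The 10 most abundant genes took 7.37% to 9.07% of organoid reads but 47.0% to 80.2% of tissue reads, so levels set across organoids and tissue depend on the scaling. SLG tissue replicate 1 stood apart from its partner: it held 562296 reads of the amylase gene Amy1, against 622 in SLG tissue replicate 2, with 6692624 and 6568789 in the PG tissue libraries. Values without it are also given for some results on SLG tissue, and not for all. Epithelial markers were plentiful in organoids (a summed 9813 to 12283 CPM, the count scaled to the size of the library) and present in tissue (1391 to 2684 CPM), although the labels name both epithelial cells. That list is mostly keratins. The 5 acinar markers found, Amy1 among them, went the other way. They summed to 142 to 1033 CPM in organoids and 27443 to 344962 CPM in tissue, so acinar epithelium was far richer in tissue by these markers. The pan-leukocyte markers summed to at most 0.597 CPM in organoids, with Ptprc at 0 reads in all 8 libraries, against 29.2 to 74.9 CPM in tissue. Fibroblast markers summed to 0.754 to 1.74 CPM in organoids and 197 to 677 CPM in tissue. Endothelial markers reached at most 4.13 CPM in organoids, against 74.2 to 352 CPM in tissue. The summed myeloid markers were not near 0 in organoids, at 36.6 to 42.6 CPM in SLG organoids and 8.32 to 17.9 CPM in the others. Tissue had 71.8 to 157 CPM. In organoid libraries Lyz2 reached 3308 reads, Itgam 648 and Cd68 546. Adgre1, Itgax and Tyrobp had 0 reads in all 8 organoid libraries, Fcer1g at most 7 and Csf1r at most 24. The part of the myeloid markers in the organoid values was not tested. In bulk samples fewer cells of a type and less RNA per cell cannot be told apart.

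In organoids, the heavy chains, Psmb8, Psmb9 and Nlrc5 were highest in PG and lowest in SMG. The medium made no difference that passed the test in any member. Psmb8 was 39.8-fold higher in PG organoids and 29.1-fold higher in SLG organoids than in SMG organoids, and the transactivator Nlrc5 stepped down across the 3 glands. B2m was high in PG organoids alone, and the transporter and Tapbp differed little, Tapbp being highest in SLG organoids. CPM values in the following organoid sections are scaled over the 8 organoid libraries. A gene was called where the edgeR quasi-likelihood test gave a Benjamini-Hochberg adjusted p under 0.05 and the log2 fold change was beyond 1 in either direction. PG organoid and SMG GEM libraries are given in the order 1 and 3, as their table columns are numbered, and all others in the order 1 and 2.

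The heavy chain H2-K1 was at 802 and 748 CPM in PG organoids, 533 and 437 CPM in SLG organoids, 233 and 199 CPM in SMG DAM organoids and 227 and 239 CPM in SMG GEM organoids. H2-D1 was at 763 and 713 CPM in PG organoids, 458 and 405 CPM in SLG organoids, 257 and 240.2 CPM in SMG DAM organoids and 229 and 269.6 CPM in SMG GEM organoids. For both heavy chains the 3 glands did not overlap, and the 2 SMG media did. PG exceeded SMG DAM organoids by 1.84 ± 0.11 on the log2 scale for H2-K1 (± SE, edgeR adjusted p = 2.24e-07) and by 1.57 ± 0.10 for H2-D1 (edgeR adjusted p = 2.83e-07). SLG exceeded SMG DAM organoids by 1.16 ± 0.11 for H2-K1, which was called (edgeR adjusted p = 5.92e-06), and by 0.80 ± 0.10 for H2-D1, which stayed under the fold limit. Without SLG organoid replicate 1 the H2-K1 difference was 0.99 and no longer called. PG over SLG was 0.68 ± 0.11 for H2-K1 and 0.77 ± 0.09 for H2-D1, both under the fold limit.

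B2m, the light chain of all classical class I molecules, split the organoids differently. It was at 612 and 546 CPM in PG organoids, against 137 and 119.6 CPM in SLG, 131 and 140.2 CPM in SMG DAM and 118 and 131 CPM in SMG GEM organoids. SLG and the 2 SMG groups overlapped, and only PG stood above. PG exceeded SLG organoids by 2.17 ± 0.10 (4.52-fold, edgeR adjusted p = 4.22e-08) and SMG DAM organoids by 2.10 ± 0.09 (4.27-fold, edgeR adjusted p = 3.06e-08), while SLG over SMG was -0.08 ± 0.09. In TPM, a unit corrected for transcript length, B2m over the sum of H2-K1 and H2-D1 was 0.773 in the 1 PG organoid library whose TPM values were used, 0.273 and 0.281 in SLG organoids, 0.531 and 0.635 in SMG DAM organoids and 0.513 in the 1 SMG GEM library used likewise. Among organoids, the SLG libraries thus held the least B2m per heavy chain transcript. In tissue the same ratio was 0.453 and 0.510 in PG, 0.220 and 0.188 in SLG and 0.521 and 0.540 in SMG.

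**Figure D1:**
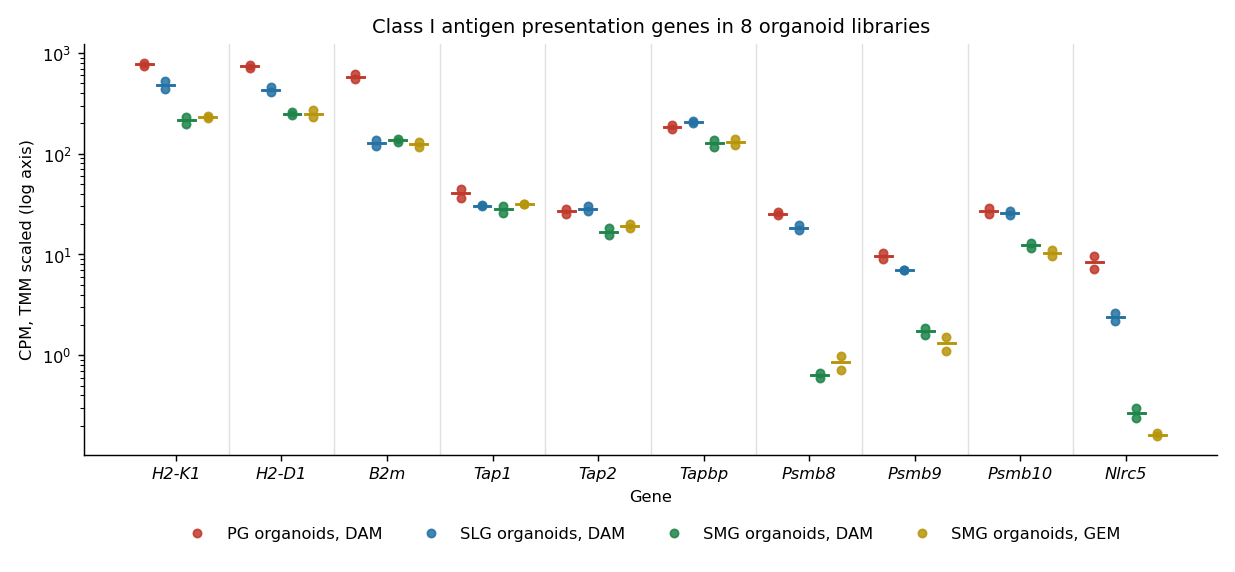
Levels of the 10 class I genes in the 8 organoid libraries, in CPM on a log axis, with 1 point per library, a line at each group mean and groups in the order PG, SLG, SMG DAM and SMG GEM. Psmb8 lies between 17.5 and 26.1 CPM in PG and SLG organoids and under 1 CPM in all 4 SMG libraries, while Tapbp stays between 117 and 212 CPM throughout.

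The peptide loading genes varied least. Tap1 was at 44.8 and 36.0 CPM in PG, 30.7 and 30.4 CPM in SLG, 30.2 and 25.8 CPM in SMG DAM and 31.5 and 31.9 CPM in SMG GEM organoids. Only PG lay above the others, by 0.53 ± 0.11 on the log2 scale over SMG DAM (edgeR adjusted p = 0.00234). Tap2 was at 28.0 and 25.5 CPM in PG and 30.1 and 26.9 CPM in SLG organoids, against 18.1 and 15.5 CPM in SMG DAM and 18.4 and 20.3 CPM in SMG GEM organoids. PG and SLG overlapped, and SMG DAM lay below both, by 0.67 ± 0.11 against PG and 0.76 ± 0.11 against SLG. Tapbp was at 192 and 176 CPM in PG and 212 and 203 CPM in SLG organoids, against 136 and 117 CPM in SMG DAM and 139 and 123 CPM in SMG GEM organoids. Its differences from SMG DAM, 0.54 ± 0.09 for PG and 0.72 ± 0.09 for SLG, also stayed under the fold limit. None of the 3 loading genes was called in any organoid comparison.

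Among the immunoproteasome subunits, Psmb8 differed most between SMG and the other organoids. Psmb8, the immune counterpart of Psmb5, was at 26.1 and 24.4 CPM in PG and 19.4 and 17.5 CPM in SLG organoids, against 0.670 and 0.597 CPM in SMG DAM and 0.708 and 0.992 CPM in SMG GEM organoids. PG was 39.8-fold above SMG DAM organoids (log2 5.31 ± 0.17, edgeR adjusted p = 3.47e-09) and SLG 29.1-fold (log2 4.86 ± 0.17, edgeR adjusted p = 6.03e-09), and all PG and SLG libraries lay far above all SMG libraries. Psmb9, which replaces Psmb6, was at 10.3 and 9.05 CPM in PG, 7.02 and 6.93 CPM in SLG, 1.59 and 1.85 CPM in SMG DAM and 1.10 and 1.53 CPM in SMG GEM organoids. It was 5.62-fold higher in PG and 4.05-fold higher in SLG than in SMG DAM organoids, with log2 differences of 2.49 ± 0.20 and 2.02 ± 0.19. Psmb10, which replaces Psmb7, was at 25.5 and 28.8 CPM in PG and 24.7 and 26.9 CPM in SLG organoids, against 11.7 and 12.9 CPM in SMG DAM and 9.59 and 11.2 CPM in SMG GEM organoids. PG and SLG overlapped, and their excess over SMG DAM organoids was 1.14 ± 0.11 and 1.07 ± 0.11. The Psmb10 call between SLG and SMG was lost without SMG DAM replicate 1 (0.998) or without SLG organoid replicate 2 (0.97). Between PG and SLG organoids the 3 subunits differed by 0.07 to 0.47, under the fold limit.

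Nlrc5, the transactivator of class I genes, was at 9.58 and 7.20 CPM in PG and 2.63 and 2.20 CPM in SLG organoids, against 0.296 and 0.236 CPM in SMG DAM and 0.169 and 0.158 CPM in SMG GEM organoids. The 4 groups did not overlap. PG exceeded SLG by 1.79 ± 0.22 (3.47-fold, edgeR adjusted p = 0.000103), PG exceeded SMG DAM by 4.97 ± 0.28 (31.3-fold, edgeR adjusted p = 1.49e-07), and SLG exceeded SMG DAM by 3.18 ± 0.28 (9.03-fold, edgeR adjusted p = 3.94e-06). The SMG values rest on few reads, down to 10 in a library, and are correspondingly imprecise.

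Counted over the 10 genes, 2 were called higher in PG than in SLG organoids (B2m and Nlrc5), where 5.83% of all 16260 genes tested were. In PG over SMG DAM organoids 7 were called higher, against 9.16% of all genes, with a median log2 difference of 1.70, against 0.00 over all genes. All 10 had an edgeR adjusted p under 0.05. Passing on p alone was common there: 8381 of all 16260 genes had an unadjusted edgeR p under 0.05. In SLG over SMG DAM organoids 5 were called higher, against 8.91% of all genes, with a median of 0.93. None of the 10 was called lower in these 3 gland comparisons, against 3.93%, 5.55% and 6.28% of all genes. For the medium, 0 of 10 were called between SMG DAM and SMG GEM organoids by edgeR or by DESeq2, against 2.96% of all genes called by edgeR in either direction. At an unadjusted edgeR p under 0.05, 0 of the 10 passed, against 5593 of all 16260 genes. Their log2 differences ran between -0.43 ± 0.21 (Psmb8) and 0.70 ± 0.37 (Nlrc5), with adjusted p between 0.154 and 0.980. At these standard errors a change of that size was not detectable in Nlrc5 or Psmb8.

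**Figure D2:**
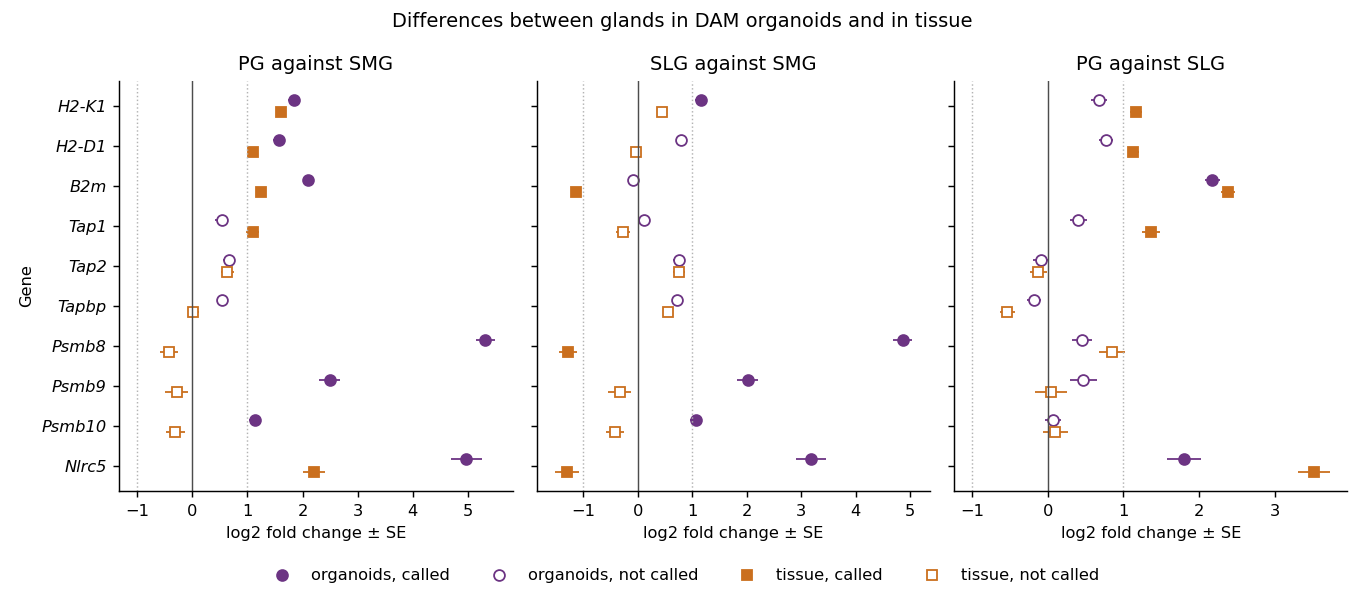
Log2 differences between glands for the 10 class I genes, with standard errors as bars, for organoids in DAM and for tissue, each fitted on its own libraries, with filled symbols for calls and dotted lines at the fold limits. For SLG over SMG, Psmb8 lies at 4.86 in organoids and at -1.27 in tissue, and Nlrc5 at 3.18 and -1.30, on opposite sides of 0.

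In tissue, scaled over the 6 tissue libraries, PG also held the most heavy chain, light chain, Tap1 and Nlrc5 transcript, but the immunoproteasome did not follow. H2-K1 was at 549.9 and 539 CPM in PG, 244 and 243 CPM in SLG and 175 and 182 CPM in SMG tissue. H2-D1 was at 387 and 376 CPM in PG, 174 and 174 CPM in SLG and 175 and 180.2 CPM in SMG tissue. For H2-D1 the SLG and SMG values were side by side on this CPM scale (-0.03 ± 0.07 on the log2 scale). In TPM its means were 156 in SLG and 58.4 in SMG tissue. B2m was at 214 and 235 CPM in PG, 46.6 and 39.7 CPM in SLG and 91.3 and 97.8 CPM in SMG tissue. SLG was thus lowest on the CPM scale, but in TPM the B2m means were 77.5 in SLG and 62.9 in SMG tissue. PG over SLG was 1.16 ± 0.08 for H2-K1, 1.13 ± 0.07 for H2-D1 and 2.38 ± 0.09 for B2m (edgeR adjusted p between 5.66e-10 and 7.41e-08). PG over SMG was 1.61 ± 0.08, 1.10 ± 0.07 and 1.25 ± 0.09 for the same genes, and B2m in SLG over SMG was -1.13 ± 0.09 (edgeR adjusted p = 5.43e-07).

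Tap1 was at 15.8 and 17.9 CPM in PG tissue, 6.37 and 6.69 CPM in SLG tissue and 7.20 and 8.63 CPM in SMG tissue. PG was above both, by 1.37 ± 0.12 over SLG and 1.09 ± 0.12 over SMG, the second call being lost without SMG tissue replicate 1 (0.96). Tap2 was at 14.9 and 12.6 CPM in PG, 14.3 and 15.7 CPM in SLG and 8.80 and 8.90 CPM in SMG tissue. Tapbp was at 32.7 and 28.6 CPM in PG, 41.3 and 47.4 CPM in SLG and 28.3 and 32.1 CPM in SMG tissue. SLG tissue was highest for Tapbp, and neither Tap2 nor Tapbp was called in a tissue comparison.

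Psmb8 was at 5.02 and 5.48 CPM in PG, 2.46 and 3.34 CPM in SLG and 7.12 and 6.94 CPM in SMG tissue, so on the CPM scale SMG was highest in tissue and lowest in organoids. In TPM the order in tissue was another, with means of 3.63 in PG, 3.73 in SLG and 3.28 in SMG. SLG over SMG was -1.27 ± 0.17 (edgeR adjusted p = 4.95e-05) and ran between -1.51 and -1.07 with 1 library left out. PG over SMG was -0.42 ± 0.17, which was not called and ran between -0.48 and 0.14 over the alternatives. PG over SLG was 0.85 ± 0.17, 0.64 without SLG tissue replicate 1, and 1.09 and called without SLG tissue replicate 2. Psmb9 and Psmb10 showed little difference, with values of 2.10 to 3.04 CPM and 3.60 to 5.15 CPM over all 6 tissue libraries. Nlrc5 was at 14.5 and 18.3 CPM in PG, 1.83 and 1.09 CPM in SLG and 3.35 and 3.75 CPM in SMG tissue. PG was 11.4-fold above SLG (log2 3.51 ± 0.21, and 3.90 without SLG tissue replicate 1) and 4.63-fold above SMG (log2 2.21 ± 0.20), and SLG over SMG was -1.30 ± 0.22 (edgeR adjusted p = 0.000448). That last call was lost without SLG tissue replicate 2 (-0.95) and was -1.69 without SLG tissue replicate 1.

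**Figure D3:**
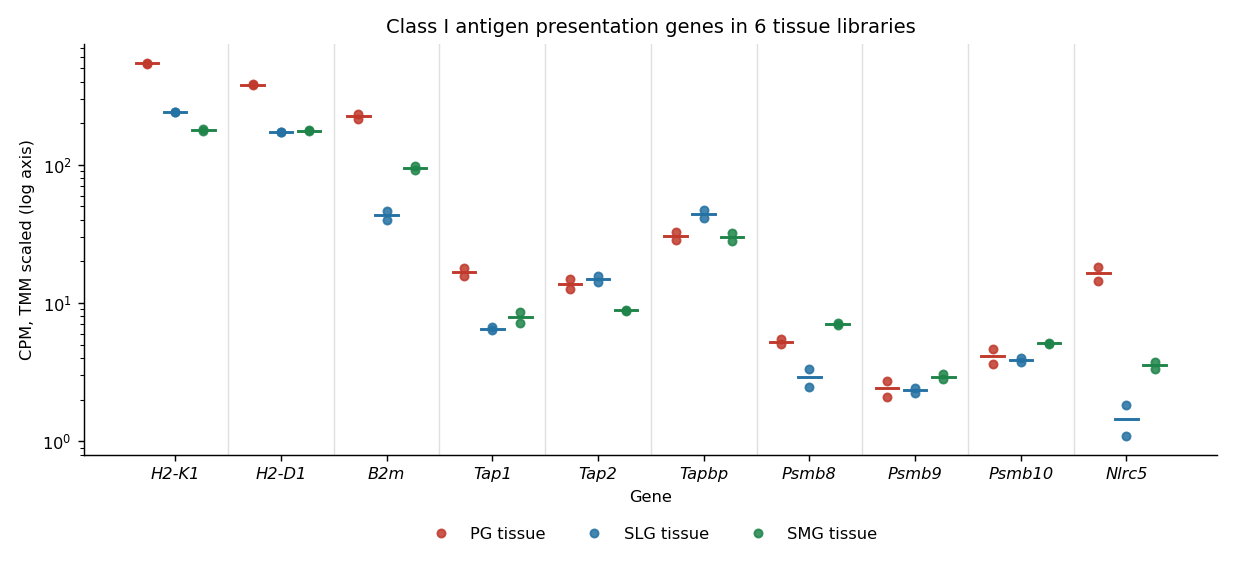
Levels of the 10 class I genes in the 6 tissue libraries, in CPM on a log axis, with 1 point per library, a line at each group mean and glands in the order PG, SLG and SMG. Nlrc5 reaches 14.5 and 18.3 CPM in PG tissue and stays under 4 CPM in SLG and SMG tissue, and on this CPM scale Psmb8 is highest in SMG tissue.

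Of the 10 genes, 5 were called higher in PG than in SLG tissue (H2-K1, H2-D1, B2m, Tap1 and Nlrc5), against 15.7% of all 16293 genes tested, and the same 5 were called higher in PG than in SMG tissue, against 6.71%. With the totals of all genes, PG over SLG tissue had 2 members higher and 1 lower, against 866 and 6858 of all genes. In SLG over SMG tissue 3 were called lower (B2m, Psmb8 and Nlrc5), against 11.9% of all genes. In this last comparison 3 of 4 pan-leukocyte markers, 5 of 8 myeloid markers and 6 of 6 fibroblast markers were also lower in SLG, with Ptprc at -1.69. The summed pan-leukocyte markers were 29.2 to 31.0 CPM in SLG and 60.6 to 74.9 CPM in SMG tissue, on the scale of all 14 libraries. The part of these cells in the B2m, Psmb8 and Nlrc5 values was not tested. PG tissue had 45.7 to 49.6 CPM of the pan-leukocyte markers, below SMG tissue, and Ptprc in PG over SMG tissue was at -1.12. The SLG over SMG directions depend on scaling. With library totals of all genes, 3 members were called higher and 0 lower, against 7814 and 417 of all 16293 genes. The median of all genes was 0.98 there. In the TPM fits B2m was at 0.30 and Psmb8 at 0.12 with a pseudocount of 1.

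A direct test asked whether a gland difference in organoids differed from the same gland difference in tissue, using all 14 libraries. For PG over SMG it did so for 4 genes, against 13.6% of all 14323 genes tested that were called higher, namely Psmb8 (5.72 ± 0.25, edgeR adjusted p = 3.15e-11), Psmb9 (2.75 ± 0.29), Psmb10 (1.43 ± 0.19) and Nlrc5 (2.74 ± 0.38). For SLG over SMG it did so for 5, against 11.8%, namely Psmb8 (6.15 ± 0.25, edgeR adjusted p = 1.35e-11), Nlrc5 (4.48 ± 0.39), Psmb9 (2.36 ± 0.28), Psmb10 (1.49 ± 0.19) and B2m (1.07 ± 0.14). The B2m call was lost without SLG organoid replicate 1 (0.97) or without SLG tissue replicate 2 (0.95), and was at -0.13 in the TPM fits. Nlrc5 for SLG over SMG ran between 4.14 and 4.89 with 1 library left out. For PG over SLG the 1 call was Nlrc5, whose gland difference was smaller in organoids (-1.74 ± 0.31, edgeR adjusted p = 0.000210), against 13.0% of all genes called lower. It was -2.15 without SLG tissue replicate 1. None of the 10 was called lower for PG over SMG or SLG over SMG, against 11.4% and 10.4% of all genes, and 0 were called higher for PG over SLG, against 13.4%. Neither heavy chain, nor Tap2 or Tapbp, was called in any of these 3 tests, and Tap1 reached -0.99 ± 0.17 in PG over SLG, just under the fold limit. Tap1 was called there without PG organoid replicate 1 (-1.18), PG tissue replicate 1 (-1.07) or SLG tissue replicate 2 (-1.02). With the totals of all genes, 3 members in place of 5 were called higher for SLG over SMG, against 818 of all 14323 genes.

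Ratios within a library do not depend on scaling and show the immunoproteasome pattern most directly. Reads of Psmb8 per read of Psmb5, the subunit it replaces, were 0.270 and 0.240 in PG organoids, against 0.155 and 0.175 in PG tissue. SLG organoids had 0.214 and 0.182, against 0.0752 and 0.101 in SLG tissue. SMG DAM organoids had 0.00714 and 0.00620 and SMG GEM organoids 0.00925 and 0.0104, against 0.200 and 0.203 in SMG tissue. The 4 SMG organoid libraries thus lay below all 10 other libraries, SMG tissue included. Psmb9 per Psmb6 read was 0.0767 and 0.0621 in PG organoids and 0.0543 and 0.0537 in SLG organoids, against 0.0574 and 0.0698 in PG tissue and 0.0589 and 0.0590 in SLG tissue. In SMG it was 0.0105 and 0.0116 in DAM organoids and 0.00899 and 0.00984 in GEM organoids, against 0.0765 and 0.0675 in tissue. Psmb10 per Psmb7 read was less extreme, at 0.0756 and 0.0764 in SMG DAM organoids and 0.0607 and 0.0669 in SMG GEM organoids, against 0.129 and 0.131 in SMG tissue. Psmb5 itself was at 96.9 and 102 CPM in PG, 90.8 and 95.7 CPM in SLG and 93.9 and 96.2 CPM in SMG DAM organoids.

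**Figure D4:**
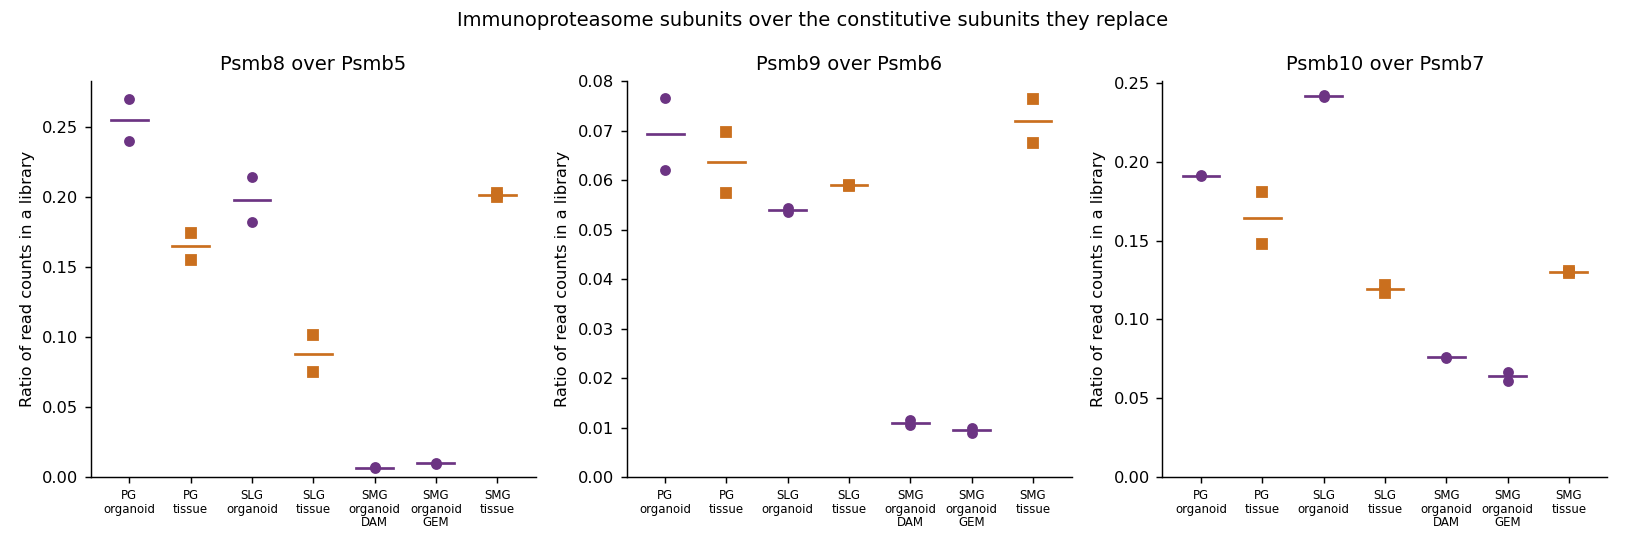
Reads of each immunoproteasome subunit per read of the constitutive subunit it replaces, on a linear axis that starts at 0, with 1 point per library, a line at each group mean and organoids before tissue within each gland. Psmb8 per Psmb5 is between 0.00620 and 0.0104 in the 4 SMG organoid libraries and between 0.0752 and 0.270 in all other libraries.

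By TPM, the 3 immune subunits together made up 12.1% of the 6 catalytic subunit transcripts in the PG organoid library whose TPM values were used, 11.3% and 11% in SLG organoids, 2.71% and 2.80% in SMG DAM organoids and 2.46% in the SMG GEM library used likewise. In tissue they made up 9.27% and 9.40% in PG, 6.59% and 7.10% in SLG and 9.91% and 9.68% in SMG. Per length, B2m and the heavy chains were the most abundant members everywhere: in SMG DAM organoids B2m was at 253 and 263 TPM and H2-K1 at 231 and 191 TPM, while Psmb8 was at 0.900 and 0.783 TPM and Nlrc5 at 0.0642 and 0.0467 TPM.

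Organoids were then set against the tissue of the same gland, with all 14 libraries scaled together. SMG organoids fell furthest: Psmb8 was at 0.601 and 0.533 CPM in SMG DAM organoids, against 20.1 and 19.7 CPM in SMG tissue, and Nlrc5 at 0.265 and 0.211 CPM, against 9.47 and 10.6 CPM. Psmb8 was 34.9-fold lower (log2 -5.13 ± 0.20, edgeR adjusted p = 5.51e-13) and Nlrc5 41.7-fold lower (log2 -5.38 ± 0.30, edgeR adjusted p = 6.34e-11). Psmb9 (-2.43 ± 0.21), H2-K1 (-1.38 ± 0.10), H2-D1 (-1.17 ± 0.08) and B2m (-1.14 ± 0.10) were lower too, making 6 of 10 members lower, against 22.4% of all genes. These last 4 genes turned to the other side of 0 in the TPM fits, at 0.52 to 2.02 with a pseudocount of 1, and the heavy chains and B2m also did with the totals of all genes. In PG organoids 2 of 10 were called lower, against 22.6% of all genes: Nlrc5 (-2.64 ± 0.22), at 8.55 and 6.28 CPM, against 40.9 and 51.8 CPM in PG tissue, and H2-K1 (-1.17 ± 0.10, but 0.88 with the totals of all genes). Psmb10 was called higher there (1.04 ± 0.13), against 24.2% of all genes, but not without PG organoid replicate 3 (0.97) or PG tissue replicate 2 (0.87), and it was -0.01 with reference gene factors. Tapbp (0.91 ± 0.11) was called higher without PG tissue replicate 1. In SLG organoids 2 were called higher, against 19.7% of all genes, Psmb10 (1.10 ± 0.13) and Psmb8 (1.02 ± 0.16). Psmb8 was at 16.9 and 15.2 CPM in SLG organoids, against 6.69 and 9.04 CPM in SLG tissue, and its call was lost without SLG tissue replicate 1 (0.82) or without SLG organoid replicate 1 (0.94). Nlrc5 in SLG was -0.90 ± 0.24 and was called lower, as 18.6% of all genes were, without SLG tissue replicate 2 (-1.24) or SLG organoid replicate 1 (-1.03), and it was -0.49 without SLG tissue replicate 1.

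These levels across material turn on the scaling, because a few secretory genes fill the tissue libraries. With the totals of all genes, the median of all genes moved up by 2.05 in PG, 2.05 in SMG and 1.17 in SLG, and with factors from a list of reference genes it moved by -1.05 in PG, -0.95 in SMG and -0.69 in SLG. H2-K1 in SMG organoids over tissue was -1.38 in the main scaling and 0.67 with the totals of all genes, so no direction for the heavy chains or B2m across material holds in all scalings. Relative to the median of all genes, Psmb8 in SMG organoids lay between -5.18 and -1.64 and Nlrc5 between -5.44 and -0.68 over all scalings and units tried, below the median each time. The upper values come from the TPM fits, whose pseudocount compresses low genes. Epithelial, acinar, leukocyte and fibroblast markers also differed between the materials, as given above. The part of these cells in the differences was not tested.

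**Figure D5:**
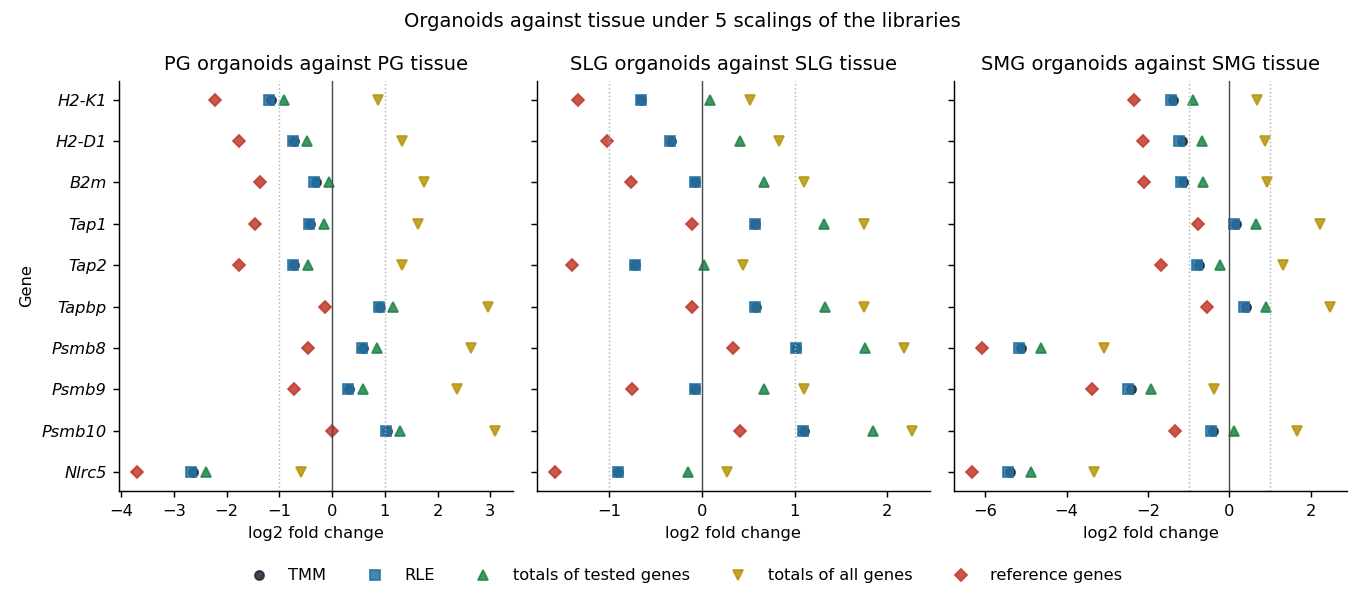
Log2 difference of organoids over tissue of the same gland for the 10 class I genes, with 1 symbol per scaling of the counts. In SMG, Psmb8 and Nlrc5 lie below 0 under every count scaling, while H2-K1 lies at -1.38 in the main scaling and at 0.67 with the totals of all genes.

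The wider pathway was followed through further lists. Interferon-stimulated genes, 25 in number and all tested, moved with the members in organoids. PG over SMG DAM organoids had 21 of them called higher, against 9.16% of all genes, and 1 lower, against 5.55%. The median log2 difference was 2.43, against 0.00 over all genes. SLG over SMG DAM organoids had 13 higher, against 8.91%, and 0 lower, against 6.28% (median 1.01). PG over SLG organoids had 14 higher, against 5.83%, and 1 lower, against 3.93% (median 1.38). Rtp4, a chaperone of receptors, was at 32.4 and 22.6 CPM in PG, 6.23 and 6.12 CPM in SLG and 1.04 and 1.11 CPM in SMG DAM organoids, and differed by 4.67 between PG and SMG. Gbp2, a guanylate-binding protein, was at 29.5 and 23.8 CPM in PG and 19.3 and 19.1 CPM in SLG organoids, against 4.55 and 4.98 CPM in SMG DAM organoids. Parp14 and Ifih1, a sensor of double-stranded RNA, differed by 2.83 and 2.07 between PG and SMG. Mx1, an antiviral GTPase, went the other way, at 3.04 and 3.20 CPM in PG organoids, against 19.6 and 16.4 CPM in SMG DAM organoids (-2.53).

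Between the SMG media, where no member was called, 3 of the 25 were higher in DAM than in GEM, against 1.81% of all genes, and 0 were lower, against 1.15%. They were Ifit1 (1.43), Ifit3 (1.19) and Ifit2 (1.05), members of 1 family of RNA-binding proteins. Ifit1 was at 24 and 22.6 CPM in SMG DAM and 7.41 and 9.89 CPM in SMG GEM organoids, with no overlap. In tissue, PG over SLG had 5 of the 25 higher, against 15.7% of all genes, and 1 lower, against 12.6%. PG over SMG tissue had 1 higher, against 6.71%, and 5 lower, against 6.78%. SLG over SMG tissue had 0 higher, against 8.38%, and 6 lower, against 11.9%. The PG over SMG difference was called larger in organoids than in tissue for 22 of the 25, against 13.6% of all genes. The SLG over SMG difference was called larger for 18, against 11.8%. With the totals of all genes it was for 11, against 818 of all 14323 genes. In SMG organoids over SMG tissue 2 were higher, against 23% of all genes, and 18 lower, against 22.4%, with the main scaling. With the totals of all genes 7 were higher and 10 lower, against 11006 and 861 of all 14323 genes.

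Of the other class I and class I-like heavy chains, 12 of 19 were tested in organoids. In PG over SMG DAM organoids 9 were called higher (median 1.70), against 9.16% of all genes. In SLG over SMG DAM organoids 5 were (median 0.98), against 8.91%. For PG over SLG organoids 1 of the 12 was, against 5.83%, which is little above that share. H2-Q4, a nonclassical heavy chain, was at 60.1 and 50.1 CPM in PG and 34.8 and 30.7 CPM in SLG organoids, against 5.05 and 3.94 CPM in SMG DAM organoids. Mr1, which presents vitamin metabolites, was at 34.2 and 26.0 CPM in PG and 25.1 and 25.4 CPM in SLG organoids, against 6.20 and 5.76 CPM in SMG DAM organoids. H2-Q6 differed by 3.31 between PG and SMG, but H2-Q6 and H2-Q7 are near-identical and their counts are uncertain. The proteasome activators and constitutive subunits, 8 genes, differed little between organoid groups, with log2 differences between -0.60 and 0.51 in the 4 organoid comparisons.

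Of 7 chaperone and trimming genes, 1 was called in organoids, Erap1, the aminopeptidase that trims peptides in the endoplasmic reticulum. It was at 94.2 and 94.7 CPM in PG and 95.8 and 102 CPM in SLG organoids, against 36.8 and 39.6 CPM in SMG DAM organoids, differing by 1.31 and 1.37. Of all genes, 9.16% were called higher in PG and 8.91% in SLG over SMG DAM organoids. Among 18 listed regulators, Irf1, which binds the interferon response element, was at 79.9 and 70.8 CPM in PG and 86.5 and 84.0 CPM in SLG organoids, against 52.3 and 53.2 CPM in SMG DAM organoids, under the fold limit in each pair. Irf7 (1.07), Socs1 (1.16) and Socs3 (1.10) were the 3 called between PG and SLG organoids, where 5.83% of all genes were called higher. Of 9 interferon receptors and kinases, Ifngr1 (1.16 in PG over SMG, against 9.16% of all genes) was the only call between the organoid groups. The interferon gene Ifng had 0 reads in all 14 libraries, and no listed interferon had more than 5 reads in an organoid library.

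The genes whose organoid pattern was most like the mean of the 10 members, by Pearson correlation over the 8 libraries among 10502 genes, were Afap1l1 (0.998), Alox12 (0.997), Anpep (0.995), Nfe2l3, Plekhb1, Muc5b, Mgp and Ly75 (0.992). In tissue, over 6 libraries and 8147 genes, they were Phf5a (0.998), Parp8, Rgl2, Clk3, Phc1, Ly6a, Atp13a1 and C1qtnf12 (0.996). The points share their libraries and their scaling, each group adds 2 of them, and no gene stood in both lists.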

How the data were processed

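RNA-seq counts of the 14 libraries were taken from the 2 tables deposited by the authors, 1 for organoids and 1 for tissue. Per the submitters' processing notes, HISAT2, StringTie and DESeq2 were used with GRCm38, without versions. The deposited read counts are whole numbers per gene. TPM values, scaled by the authors to gene length and library, were used for 12 libraries. The TPM columns of the 2 libraries numbered 3 were not used here. In all, 16 columns of per-sample values were not used, 4 of them because their number matches no label. The labels name a total RNA kit and the study's methods an mRNA kit. Columns numbered 3 were placed by group name.

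Counts were tested with edgeR 4.0.16 in R 4.3.3 (TMM scaling, robust quasi-likelihood fit), leaving out each gene that had no read in 1 or more libraries fitted, with Benjamini-Hochberg adjustment over all genes tested. A call needed both an adjusted p under 0.05 and a change beyond 1 on the log2 scale. Organoids were fitted alone (16260 genes), tissue alone (16293) and all libraries together (14323). CPM values are those of each fit. The test was checked on simulated data. Alternatives were DESeq2 1.42.0, other scalings and filters, a replicate block, limma 3.58.1 on log2 of TPM plus 1 or 0.1 (mean TPM of at least 1, or no filter), and leaving out each library. All 10 members are named, and of each other list up to 4 tested genes with the smallest adjusted p, or all genes of a count of 5 or fewer. The members and lists were chosen with earlier results of these data known. Likeness was ranked among genes averaging 5 CPM or more. A result on a listed regulator is not reported here.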

Additional observations from a re-analysis of the deposited data

Results flagged for a closer look

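The gland difference of 10 gene and gland pairs differed between organoids and tissue, by an edgeR test of that difference itself over all 14 libraries, with an adjusted p under 0.05 and a size beyond 1 on the log2 scale. For PG over SMG these were Psmb8 (5.72), Psmb9 (2.75), Nlrc5 (2.74) and Psmb10 (1.43) as the gland difference in organoids minus that in tissue. For SLG over SMG they were Psmb8 (6.15), Nlrc5 (4.48), Psmb9 (2.36), Psmb10 (1.49) and B2m (1.07). For PG over SLG the 1 gene was Nlrc5 (-1.74). Groups of 2 libraries are too small to look for a library far from the others.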

How the results depend on the processing

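With 2 libraries a group, errors rest on few libraries. Where a fit left 1 library in a group (each library left out, and the TPM fits for PG and SMG GEM organoids), the spread came from the remaining groups and was taken to hold for it too. Counts of 10 to 63 reads behind Nlrc5 and Psmb8 in SMG organoids limit their precision. The DAM and GEM comparison and the PG against SMG organoid comparison kept the call of each member in all alternatives that could test it, and the TPM fits that filter on mean TPM left Nlrc5 out. Replicate numbers are shared by name only: same-numbered libraries deviated together with correlations between -0.0177 and 0.270 in organoids and between -0.0324 and -0.0120 in tissue, and a replicate block changed 1 count, leaving 0 members higher in PG organoids than in PG tissue.

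In the TPM fits with either pseudocount and a filter, PG over SLG organoids had 1 member higher and PG over SLG tissue 1 higher and 1 lower, and without the filter that tissue comparison had 2 higher and 1 lower. SLG over SMG tissue had 4 higher and 0 lower with a pseudocount of 1, with or without the filter, and 6 higher with 0.1. With the filter, 6897 of all 10182 genes tested were called higher there with a pseudocount of 1, and 8355 with 0.1. In PG over SLG tissue 205 were higher and 3799 lower with a pseudocount of 1 and the filter. In all 3 TPM fits PG organoids over tissue had 9 higher and 0 lower, SMG organoids over tissue 7 higher and 1 lower, SLG organoids over tissue 9 higher, the PG and SLG difference between materials 2 higher and 0 lower, and the SLG and SMG difference 2 higher, with 2 lower at a pseudocount of 0.1. With a pseudocount of 1, 11338, 11418 and 10178 of all 13012 genes tested were also called higher in PG, SMG and SLG organoids over tissue. Totals of the tested genes gave 2 higher and 2 lower in PG over SLG tissue and 4 and 0 in SLG over SMG tissue. Of all 16293 genes tested they called 829 higher and 7292 lower in the first and 8847 higher and 337 lower in the second. In organoids over tissue they gave 2 higher and 1 lower in PG, 3 lower in SMG and 4 higher in SLG. Of all 14323 genes, 4227 were higher and 2630 lower in PG, 2244 were lower in SMG and 5535 higher in SLG. For the PG and SLG difference 3 were lower, against 3579 of all genes. Totals of all genes gave 2 higher and 1 lower in PG over SLG tissue and 3 and 0 in SLG over SMG tissue. Of all genes tested, 866 were higher and 6858 lower in the first and 7814 higher and 417 lower in the second. In organoids over tissue, members gave 8 higher and 0 lower in PG, 4 and 2 in SMG and 6 higher in SLG. Of all 14323 genes, 11009 were higher and 715 lower in PG, 11006 and 861 in SMG, and 7969 were higher in SLG. For the PG and SLG difference 2 members were higher and 0 lower, against 6226 and 562 of all genes. For the SLG and SMG difference 3 were higher, against 818 of all genes. Reference genes gave 0 higher and 6 lower in PG and 0 higher and 4 lower in SLG organoids over tissue. Of all 14323 genes, 1431 were higher and 7056 lower in PG, and 1698 higher and 5324 lower in SLG. For the PG and SLG difference reference genes gave 2 lower, against 2987 of all genes. In PG organoids over tissue, filterByExpr gave 2 higher and no filter 2 higher and 1 lower. DESeq2 and RLE factors each gave 2 lower for the PG and SLG difference. Leaving out 1 library gave 0 to 2 higher in PG organoids over tissue, 1 to 2 higher and 0 to 1 lower in SLG organoids over tissue, and 1 to 2 lower for the PG and SLG difference.

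Among values called in at least 1 of the fits set side by side, directions turned round only in tissue or across materials, and 165 values called in neither also changed sign. Totals of the tested genes put H2-D1 at 1.07 in SLG over SMG tissue, and reference genes put Psmb10 at -0.0090 in PG organoids over tissue. With totals of all genes, PG organoids over tissue were at 0.88 for H2-K1, 1.32 for H2-D1, 1.74 for B2m, 1.64 for Tap1 and 1.33 for Tap2, SMG organoids over tissue at 0.67 for H2-K1, 0.88 for H2-D1, 0.92 for B2m, 1.32 for Tap2 and 1.66 for Psmb10, and SLG organoids over tissue at 1.10 for B2m and for Psmb9. In the TPM fits (pseudocount 1, then 0.1), SLG over SMG tissue was at 1.40 and 1.41 for H2-D1, 0.30 for B2m and 0.12 and 0.14 for Psmb8, with Tap1 at 1.12 and Psmb9 at 1.06 at 0.1 and Nlrc5 at 0.028 with no filter. PG organoids over tissue were at 1.75 for H2-K1, 2.17 and 2.18 for H2-D1, 2.62 and 2.63 for B2m, 2.37 and 2.57 for Tap1 and 2.0 and 2.19 for Tap2, with Nlrc5 at 0.29 with no filter. SMG organoids over tissue were at 1.78 and 1.80 for H2-K1, 1.98 and 2.0 for H2-D1, 2.02 and 2.03 for B2m, 1.98 and 2.38 for Tap2, 0.52 and 0.70 for Psmb9 and 2.35 and 2.73 for Psmb10. SLG organoids over tissue were at 1.32 and 1.33 for H2-K1, 1.63 and 1.64 for H2-D1, 1.89 and 1.90 for B2m, 1.17 and 1.25 for Tap2 and 1.63 and 1.83 for Psmb9. The SLG and SMG difference was at -0.13 for B2m, with Tap2 at -1.13 and Tapbp at -1.0 at 0.1. Each scaling moved the median of all genes in these comparisons, and which scaling is right was not tested.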
